A study of Mus musculus with 64 samples.

Results

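The sarcomeric myosin heavy chains that the mouse heart makes are Myh6 (alpha myosin heavy chain), Myh7 (beta myosin heavy chain) and Myh7b, and these 3 of the 16913 genes in the deposited gene table are described here. They were chosen by name and matched through their Ensembl identifiers (ENSMUSG00000040752 for Myh6, ENSMUSG00000053093 for Myh7 and ENSMUSG00000074652 for Myh7b). Total RNA from hearts of C57BL/6J mice was depleted of ribosomal RNA and sequenced in 64 libraries. TG mice carry cardiac troponin T with the delta160E deletion (cTnT-delta160E), a model of hypertrophic cardiomyopathy, and nTG mice do not. HIIT mice ran intervals on a treadmill for 6 weeks, in 3 sessions of 31 min per week at 85% and 50% of the average speed of their group, and sedentary (Sed) mice did not exercise. The groups were nTG Sed males (n = 7), TG Sed males (n = 9), nTG HIIT males (n = 8), TG HIIT males (n = 8), nTG Sed females (n = 8), TG Sed females (n = 8), nTG HIIT females (n = 10) and TG HIIT females (n = 6), each library being labelled a biological replicate. Age, the chamber of the heart and the promoter that drives the transgene are not given in the sources used here.

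Myosin heavy chain is the motor of the thick filament. In the adult mouse ventricle the fast alpha chain predominates, while the slow beta chain is the form of the fetal ventricle and is known to return under load and when thyroid hormone is low. Thyroid hormone is known to raise Myh6 and lower Myh7 transcription, and each of the 3 genes carries a microRNA of the myomiR group inside an intron. The upstream region of Myh6 is also widely used to drive transgenes in cardiac muscle.

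Myh6 (chr14:54941921-54966927, minus strand) and Myh7 (chr14:54970684-54994626, minus strand) lie in tandem on GRCm38, with 3756 bases between the 3′ end of Myh7 and the 5′ end of Myh6 in the GENCODE annotation. Myh7b lies on chromosome 2 (chr2:155611212-155634307, plus strand). Mhrt, an antisense noncoding RNA (chr14:54968678-54974349, plus strand), starts 1750 bases from the 5′ end of Myh6 and runs into the 3′ part of Myh7. Mir208a lies in intron 29 of Myh6, Mir208b in intron 31 of Myh7 and Mir499 in intron 19 of Myh7b, each on the strand of its host. The 3 mature microRNAs are shown (RefSeq, GRCm38.p6) because they mark how alike the 3 loci are, with the seed, bases 2 to 8, in capitals.
mmu-miR-208a-3p: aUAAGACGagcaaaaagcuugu
mmu-miR-208b-3p: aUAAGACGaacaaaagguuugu
mmu-miR-499-5p: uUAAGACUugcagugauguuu
The microRNAs of Myh6 and Myh7 share their seed and differ at 3 of 22 bases, and the seed of the Myh7b microRNA differs from theirs at 1 base. None of the 3 microRNAs has a row in either table, so their levels were not analysed here.

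The sequence upstream of the RefSeq starts of Myh6 and Myh7 is shown next because these neighbouring genes were the members that moved, in opposite directions. Each run holds bases 250 to 51 before the RefSeq start (GRCm38.p6, minus strand, chr14:54966658-54966857 for Myh6 and chr14:54994677-54994876 for Myh7, which has a second annotated start), and the 50 bases next to the start are left out because part of them is annotated as untranslated exon of Myh6. GENCODE places the 5′ end of Myh6 farther upstream, at 54966927, so the Myh6 run lies inside the GENCODE span of the gene. The distances of 3756 and 1750 bases above are counted from that GENCODE end.
Myh6: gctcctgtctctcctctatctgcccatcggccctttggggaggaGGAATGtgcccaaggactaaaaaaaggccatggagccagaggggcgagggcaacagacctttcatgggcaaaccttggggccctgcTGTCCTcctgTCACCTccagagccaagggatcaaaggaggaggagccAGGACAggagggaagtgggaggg
Myh7: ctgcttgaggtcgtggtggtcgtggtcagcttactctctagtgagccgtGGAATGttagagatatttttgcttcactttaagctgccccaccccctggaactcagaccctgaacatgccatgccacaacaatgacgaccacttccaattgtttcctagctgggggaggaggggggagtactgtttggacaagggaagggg
Capitals mark matches, on either strand, to CATTCC, the letters that TEAD factors are known to read, and to the half-site AGGTCA of nuclear receptors such as the thyroid hormone receptor. They also mark a form of that half-site with another letter inside, AGGTGA, and a further form, which reads AGGACA. The TEAD letters occurred in 12.6% of 32851 promoter windows of 250 bases. The 3 half-site forms, in the order named, occurred in 14.0%, 14.5% and 17.0% of them. Neither Myh6 nor Myh7 held AGGTCA, so no capitals mark it. The window of Myh7b, not shown, held 1 AGGTCA, 1 AGGACA and no CATTCC. Myh6 and Myh7 each held 1 CATTCC, which starts 206 bases before the start in Myh6 and 201 bases before it in Myh7. On the opposite strand Myh6 also held the second half-site form followed, after a spacer of 4 bases, by the last, and 3 of the 32851 windows (0.00913%) held this pair. The letters, order and spacer of the pair are those of the Myh6 run itself. Its presence there is therefore no finding, and its low share does not measure enrichment. These matches describe letters only.

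The libraries held 34.6 to 67.1 M counts in the gene table, with a median of 48.0 M. By the names of the gene table's columns, 45 of 64 columns went against the labelled sex or genotype. Each column of the companion table of long noncoding RNAs was therefore given the gene column it correlated with best over 389 autosomal transcripts (r of 0.599 to 0.863 with the best column and at most 0.404 with the next), and the label of the noncoding column was used. This assignment replaces the deposited column names (1 of 64 pairs shared a name), was first chosen with these data seen, and rests on the names of the noncoding table being right, which no label states. The comparisons between groups below all use it, and with columns by name edgeR called 0 genes in each genotype comparison. After this step none of 64 libraries went against its labelled sex, and Tnnt2, the gene of the transgene product, lay at 6903 to 12001 CPM (counts scaled to the plain library total) in TG and 2665 to 3428 in nTG libraries. All levels below, those of Tnnt2 included, are in CPM with TMM-scaled library sizes, on which Tnnt2 spanned 6538 to 11721 in TG and 2561 to 3589 in nTG libraries. Changes are log2 fold changes with their SE from edgeR's quasi-likelihood test over all 64 libraries, with p-values adjusted by Benjamini-Hochberg over all 16913 genes, and a gene is said to rise or fall only at an adjusted p below 0.05.

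Myh6 was among the most abundant transcripts of the heart. It took 3.21% to 4.62% of all counts in a library and, per kb of its longest transcript, ranked 5 of 16872 nuclear genes with a mean of 6524 CPM per kb. Myh7 had a mean of 131 CPM per kb, 49.9 times below Myh6 on that scale, and ranked 247. Myh7b, known as a minor myosin of slow muscle and heart, had 9.53 CPM per kb, 685 times below Myh6. Counts per library were 1353312 to 2620282 for Myh6, 8002 to 203787 for Myh7 and 1893 to 4533 for Myh7b, so counting error was small beside the spread between mice. That spread set the members apart from one another: the biological coefficient of variation was 0.0726 for Myh6, 0.146 for Myh7b and 0.489 for Myh7. Of 13397 genes with a mean of at least 50 counts, 99.3% varied less between mice of a group than Myh7. Myh6 and Myh7 messages are alike in sequence, with 22.6% of the 50-base windows of the Myh6 transcript found in Myh7 and none in Myh7b, and how the deposited counts divided such reads is not given in the sources used here.

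The mean of Myh7 was higher in each TG group than in its nTG counterpart, and the change passed the test in Sed males. The nTG Sed males had 421, 549 and 665 CPM (lowest, median and highest library), and TG Sed males had 525, 1802 and 3844. Of the 9 TG libraries 7 lay above every one of the 7 nTG libraries, the remaining 2 lay inside the nTG range, and the TG libraries spread over 7.33-fold against 1.58-fold in nTG. The means were 545 ± 96.7 (SD, n = 7) and 1798 ± 1210 CPM (SD, n = 9), and Myh7 rose by 1.72 ± 0.38 on the log2 scale, 3.3-fold (adjusted p = 0.00063 by edgeR). In this comparison 9.39% of all genes rose and 20.6% changed in either direction. The change held without any single library, at 1.50 to 1.85, also without the TG library with the most blood transcript (1.57 without TG Sed male replicate 5).

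**Figure D1:**
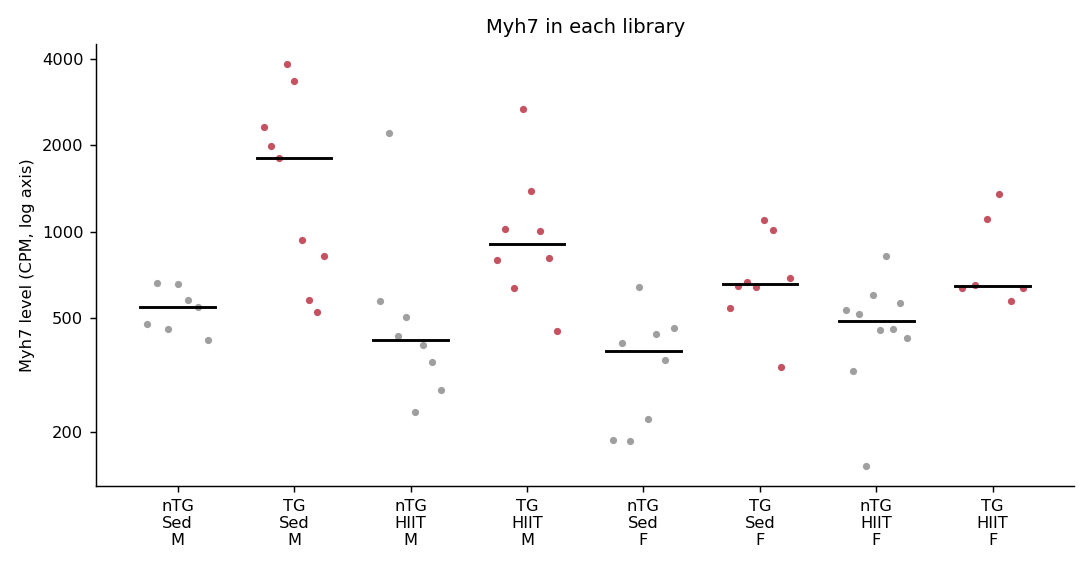
Myh7 level in CPM on a log axis for each of the 64 libraries in the 8 groups (grey points nTG, red points TG, black bar the group median). TG Sed males spread from 525 to 3844 CPM, and 1 nTG HIIT male lies at 2218 CPM, far above the other 7 of its group.

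In HIIT males the same contrast did not pass. The nTG HIIT males had 235, 420 and 2218 CPM of Myh7 and TG HIIT males 452, 908 and 2671, and all 8 TG libraries lay above the nTG median while only 1 lay above the highest nTG library. The log2 change was 0.81 ± 0.36 (p = 0.029, adjusted p = 0.130 by edgeR, where 14% of genes changed and 5.65% rose). A single nTG library decided this value: replicate 2 held 2218 CPM against 235 to 573 in the other 7, and without it the change was 1.46 (adjusted p = 0.00174 by edgeR). Without TG HIIT male replicate 4, the highest TG library, it was 0.48 (adjusted p = 0.446 by edgeR).

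In females neither Myh7 change passed in the edgeR fit of all 64 libraries. The nTG Sed females had 186, 385 and 645 CPM and TG Sed females 337, 660 and 1103, with 5 of 8 TG libraries above every nTG library. The log2 change was 0.96 ± 0.36 (p = 0.0108, adjusted p = 0.131 by edgeR, where 4.37% of genes changed and 1.58% rose). The nTG HIIT females had 153, 488 and 827 CPM and TG HIIT females 575, 646 and 1360, and all 6 TG libraries lay above the nTG median. The log2 change was 0.77 ± 0.37 (p = 0.0396, adjusted p = 0.149 by edgeR, where 14.8% of genes changed and 5.37% rose). With the 4 groups of 1 sex fitted alone, these female changes passed, at 0.96 (adjusted p = 0.0327 by edgeR) and 0.78 (adjusted p = 0.049 by edgeR). Under limma voom over all 64 libraries, the change in Sed females passed at 1.17 (adjusted p = 0.0239).

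Myh6 moved the other way and by little. In Sed males it was at 38672, 41269 and 46153 CPM in nTG and 33531, 34911 and 40273 CPM in TG libraries. All 9 TG libraries were below the nTG median and 7 of 9 were below every nTG library. Myh6 fell by 0.23 ± 0.05 on the log2 scale, 1.17-fold (adjusted p = 0.000801 by edgeR, where 11.2% of genes fell). In HIIT females it was at 38920, 43566 and 47401 CPM in nTG and 35827, 38648 and 41661 CPM in TG libraries, with 3 of 6 TG libraries below every nTG library. There it fell by 0.19 ± 0.05, 1.14-fold (adjusted p = 0.0106 by edgeR, where 9.43% of genes fell).

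In HIIT males the Myh6 change was -0.12 ± 0.05 (adjusted p = 0.0967 by edgeR, where 8.31% of genes fell), and without TG HIIT male replicate 1 it was -0.15 (adjusted p = 0.0484 by edgeR). In Sed females it was -0.11 ± 0.05 (adjusted p = 0.252 by edgeR, where 2.78% of genes fell). Ordered by mean CPM, the 4 TG groups (35645 to 38484) lay below the 4 nTG groups (41252 to 43861), and the step between the highest TG and the lowest nTG group, 2768 CPM, was the only step between neighbours larger than the SD within the groups. In bulk tissue, fewer cardiomyocytes and less Myh6 RNA per cardiomyocyte cannot be told apart. The summed level of 6 cardiomyocyte markers, all 6 in the table (Tnni3, Actc1, Ryr2, Myl2, Mybpc3 and Tnnc1), was 19828 to 22032 CPM in TG and 20891 to 24743 in nTG Sed males, 20083 to 21722 in TG and 21306 to 24253 in nTG HIIT females, and 19301 to 25416 over the 8 groups. Its deviations from the group means had r = 0.61 with those of Myh6 over the 64 libraries. Of the 6 markers, 4 fell with genotype in Sed males, 3 in HIIT males, 2 in Sed females and 4 in HIIT females. Of all genes, 11.2%, 8.31%, 2.78% and 9.43% fell in these comparisons. The part of the markers in the Myh6 result was not tested.

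**Figure D2:**
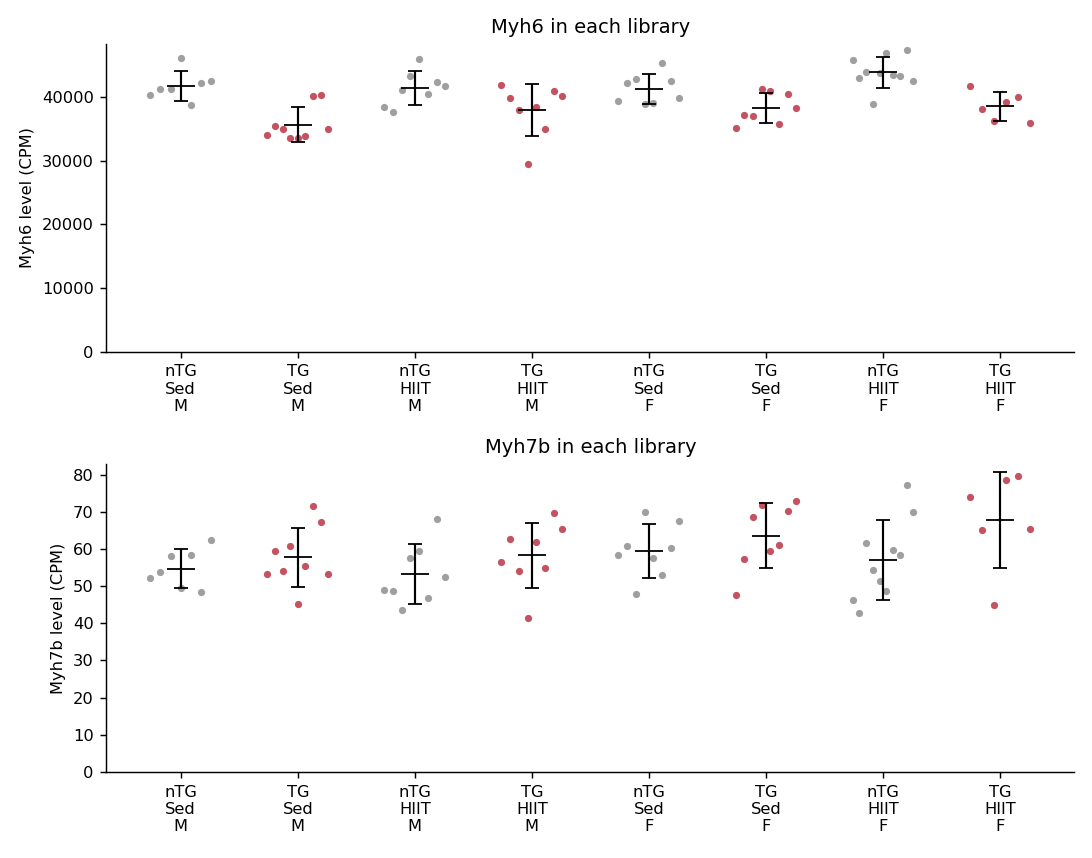
Myh6 (upper) and Myh7b (lower) in CPM on linear axes from 0 for each library by group (grey nTG, red TG), with the group mean and SD in black. The TG means of Myh6 lie between 35645 and 38484 CPM and the nTG means between 41252 and 43861, and Myh7b overlaps between all groups.

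Myh7b did not pass in any of the 12 comparisons of genotype, training and sex by edgeR, though its genotype change in HIIT females passed under other settings. Its group means ran from 53.2 ± 8.04 CPM (SD, n = 8) in nTG HIIT males to 67.9 ± 12.9 (SD, n = 6) in TG HIIT females, and no step between neighbours in that order exceeded the SD. The TG changes were 0.08 ± 0.11, 0.13 ± 0.11, 0.10 ± 0.11 and 0.25 ± 0.11 on the log2 scale in the order Sed males, HIIT males, Sed females, HIIT females. The last of these was the largest (p = 0.0229, adjusted p = 0.105 by edgeR). It rested on 44.9, 69.7 and 79.6 CPM in TG against 42.9, 56.5 and 77.1 CPM in nTG libraries, which overlap over most of their range. It passed without either of 2 libraries, at 0.36 without TG HIIT female replicate 3 (adjusted p = 0.0192 by edgeR) and 0.31 without nTG HIIT female replicate 9 (adjusted p = 0.0408 by edgeR). It also passed at 0.28 under limma voom (adjusted p = 0.0395) and at 0.38 with the replicate number as a block (adjusted p = 0.00709 by edgeR).

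**Figure D3:**
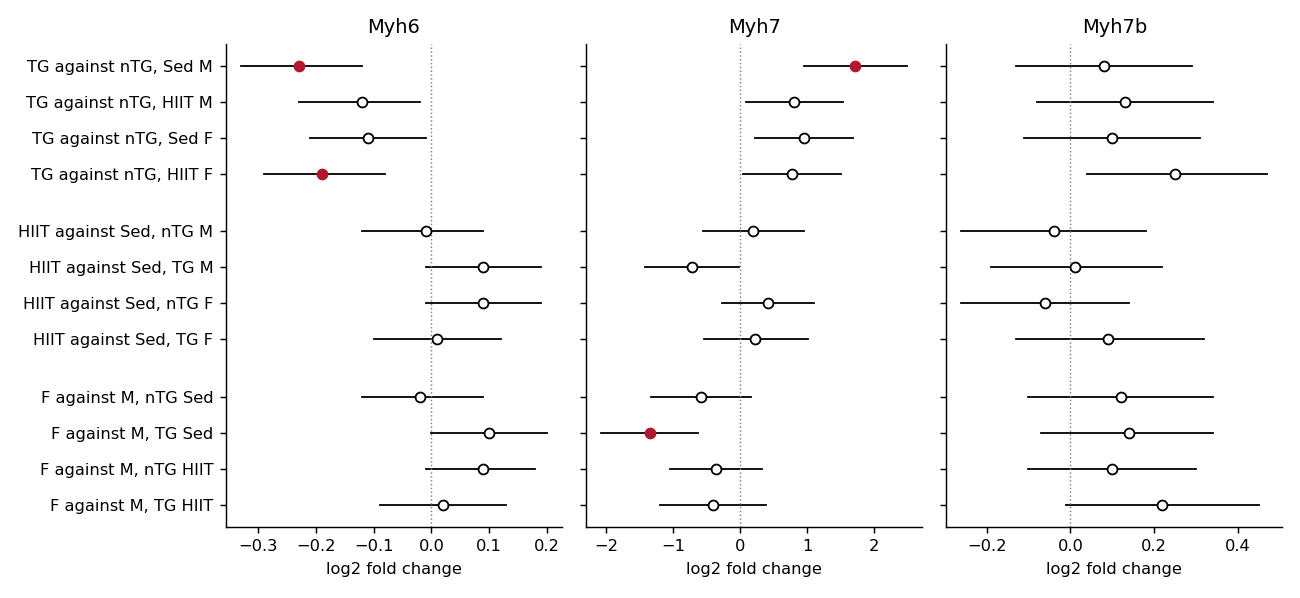
log2 fold changes of Myh6, Myh7 and Myh7b from edgeR in the 12 comparisons (rows), with 95% confidence intervals; filled red points passed an adjusted p of 0.05, and the horizontal scale differs between the panels. Myh6 passes in 2 comparisons, Myh7 in 2 and Myh7b in 0.

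The ratio of Myh7 to Myh6 counts within a library does not depend on library size and is the usual measure of a shift between the cardiac isoforms. Group means ran from 0.886 ± 0.407 Myh7 counts per 100 Myh6 counts (SD, n = 8) in nTG Sed females to 5.21 ± 3.68 (SD, n = 9) in TG Sed males. Single libraries lay between 0.392 and 11.5, so that Myh6 exceeded Myh7 in each of the 64 hearts. The log2 ratio was tested with a two-sided exact permutation test, and p-values were adjusted over the 12 comparisons of genotype, training and sex.

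In Sed males the ratio was 0.99, 1.3 and 1.61 per 100 in nTG and 1.3, 5.15 and 11.5 per 100 in TG libraries, and 7 of 9 TG libraries lay above all nTG libraries. The log2 ratio was 1.64 ± 0.40 (SE) higher in TG, 3.12-fold (exact permutation p = 0.00227, adjusted p = 0.0155). In Sed females it was 0.433, 0.907 and 1.66 per 100 in nTG and 0.833, 1.78 and 2.84 in TG libraries, a log2 difference of 1.12 ± 0.31 (exact permutation p = 0.00389, adjusted p = 0.0155) with 5 of 8 TG libraries above all nTG libraries. In HIIT females it was 0.392, 1.11 and 1.90 per 100 in nTG and 1.44, 1.75 and 3.47 in TG libraries, a log2 difference of 0.99 ± 0.29 (exact permutation p = 0.00275, adjusted p = 0.0155). In HIIT males it was 0.513, 1.03 and 5.89 per 100 in nTG and 1.13, 2.27 and 9.05 in TG libraries, with 1 of 8 TG libraries above all nTG libraries. The log2 difference of 1.14 ± 0.49 did not pass (exact permutation p = 0.0371, adjusted p = 0.0743), and without nTG HIIT male replicate 2 it was 1.47 (exact permutation p = 0.000932, adjusted p = 0.011). The ratio thus passed in 3 of 4 genotype comparisons, while Myh7 itself, adjusted over all genes, passed in 1 of 4.

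**Figure D4:**
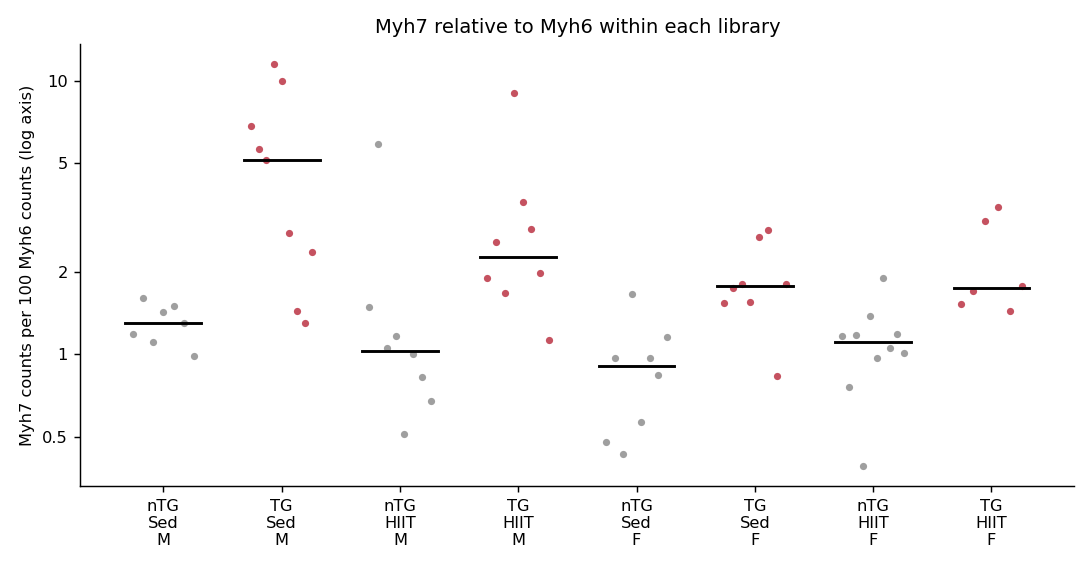
Myh7 counts per 100 Myh6 counts on a log axis for each library by group (grey nTG, red TG, black bar the group median). The TG median exceeds the nTG median in each of the 4 pairs, and the range of TG Sed males reaches from 1.3 to 11.5.

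Training did not move a member past the threshold in any of the 4 comparisons. The share of all genes that changed with training was 0% in nTG males, 18% in TG males, 0.148% in nTG females and 0% in TG females by edgeR. With single libraries left out, the 25 genes of nTG females ran from 0 to 62, and the 3036 of TG males fell to 1702 without TG HIIT male replicate 7. Where that count was 0, 999 genes in nTG males and 606 in TG females had an unadjusted p below 0.05, and DESeq2 called 4 and 0 and limma voom 1 and 3 genes. The largest member value was that of Myh7 in TG males, where Myh7 was at 525, 1802 and 3844 CPM in sedentary and 452, 908 and 2671 CPM in trained libraries. Of the 8 trained libraries 7 lay below the sedentary median, and the ranges overlapped. The log2 change was -0.71 ± 0.35 (p = 0.0478, adjusted p = 0.152 by edgeR). Without TG HIIT male replicate 4, which held 2671 CPM, it was -1.05 (adjusted p = 0.0253 by edgeR), and the Myh6 change, otherwise 0.09 ± 0.05 (adjusted p = 0.206), was then 0.13 (adjusted p = 0.0319 by edgeR). The Myh7 changes with training were 0.20 ± 0.37 in nTG males, 0.42 ± 0.34 in nTG females and 0.23 ± 0.39 in TG females. The direction in nTG males rested on nTG HIIT male replicate 2, without which the value was -0.45 (adjusted p = 0.907 by edgeR). For the ratio the log2 differences with training were -0.16, -0.67, 0.35 and 0.22 in nTG males, TG males, nTG females and TG females, with adjusted exact permutation p of 0.747, 0.350, 0.389 and 0.593.

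Females had less Myh7 than males among sedentary TG mice by edgeR. The TG Sed females held 337 to 1103 CPM and the males 525 to 3844, and all 8 females lay below the male median. The log2 difference of Myh7 was -1.35 ± 0.36, 2.55-fold lower in females (adjusted p = 0.0207 by edgeR, where 3.83% of genes differed and 2.25% were lower in females; the 647 genes that differed fell to 284 without TG Sed female replicate 7). The call was lost without any of 3 libraries, at -1.13 without TG Sed male replicate 4 (adjusted p = 0.0614 by edgeR), -1.18 without TG Sed male replicate 5 (adjusted p = 0.0578 by edgeR) and -1.24 without TG Sed female replicate 7 (adjusted p = 0.0646 by edgeR). Under limma voom it was -0.98 and did not pass (adjusted p = 0.0663). In the same comparison 5 of 5 blood markers were lower in females (median log2 change -1.02), and their part in the Myh7 difference was not tested. The corresponding log2 difference of the ratio was -1.20 ± 0.43 (exact permutation p = 0.0174, adjusted p = 0.0521). Among sedentary nTG mice it was -0.67 ± 0.26 (exact permutation p = 0.0255, adjusted p = 0.0612), with 6 of 8 females below all 7 males. It passed without nTG Sed female replicate 4, at -0.82 (exact permutation, adjusted p = 0.0117), and without nTG Sed male replicate 7, at -0.74 (exact permutation, adjusted p = 0.0464). Myh7 itself differed there by -0.58 ± 0.37 without passing (adjusted p = 0.479 by edgeR, where 2.22% of genes differed, 375 genes that ran from 204 without nTG Sed female replicate 4 to 513 with single libraries left out), and in the HIIT groups by -0.36 ± 0.34 in nTG (2.4% of genes) and -0.40 ± 0.39 in TG mice (2.29% of genes), also without passing. Without nTG HIIT male replicate 2 the nTG value was 0.29, and the 387 genes behind the TG share ran from 140 to 1082 when single libraries were left out. Male libraries carry the lower and female libraries the higher library numbers, so sex and any order of preparation cannot be told apart.

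Whether effects on a member differed between strata was tested by 6 interaction terms of genotype, training and sex, and none of 18 tests of the members passed by edgeR (0% of genes passed in any of the 6 terms, where 910 to 3063 had an unadjusted p below 0.05, and DESeq2 called up to 223 and limma voom up to 927). For the term of training by sex in TG mice the count of 0 rose to 904 genes without TG HIIT female replicate 6, 460 without TG HIIT male replicate 4 and 416 without TG Sed female replicate 4. For Myh7 the genotype change was 0.91 ± 0.51 smaller on the log2 scale in trained than in Sed males (term of -0.91, p = 0.0808, adjusted p = 0.401 by edgeR), with a 95% interval from -1.94 to 0.12. The term for sex among sedentary mice was -0.77 ± 0.51 (p = 0.141, adjusted p = 0.695 by edgeR). The larger Myh7 change of Sed males was therefore not shown to differ from those in HIIT males or Sed females.

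Mhrt is an antisense RNA of the locus that is known to be expressed in adult mouse cardiomyocytes and to fall under pressure overload. In the gene table it had a mean of 1084 counts per library. In Sed males it was at 18.9, 21.0 and 25.5 CPM in nTG and 13.4, 18.9 and 21.3 CPM in TG libraries, with 4 of 9 TG libraries below every nTG library. Mhrt fell there by 0.26 ± 0.09 on the log2 scale (adjusted p = 0.0353 by edgeR). The call was lost without any of 7 of the 16 libraries (nTG Sed male replicates 3, 4 and 7 and TG Sed male replicates 1, 2, 4 and 5), at -0.26 to -0.20, and with the male groups fitted alone, at -0.25 (adjusted p = 0.0665 by edgeR). The change was -0.21 ± 0.09 in HIIT males (adjusted p = 0.128 by edgeR), -0.06 ± 0.09 in Sed females and 0.01 ± 0.09 in HIIT females. Without nTG HIIT male replicate 2 the value in HIIT males was -0.26 (adjusted p = 0.0401 by edgeR).

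Among sedentary TG mice Mhrt was higher in females than in males by 0.41 ± 0.09 (adjusted p = 0.00394 by edgeR), with 7 of 8 female libraries above all 9 male libraries and 1.57% of all genes higher in females. The direction is opposite to that of Myh7 in the same comparison. The Mhrt difference in TG HIIT mice was 0.31 ± 0.10, with 5 of 6 females above all 8 males, and did not pass (adjusted p = 0.07 by edgeR). It passed without TG HIIT female replicate 3 (0.40, adjusted p = 0.0195 by edgeR), under DESeq2 (adjusted p = 0.0401), under limma voom (adjusted p = 0.026) and with the replicate block (adjusted p = 0.0243 by edgeR). In nTG mice it was 0.21 ± 0.09 in Sed (adjusted p = 0.259 by edgeR) and 0.09 ± 0.09 in HIIT groups (adjusted p = 0.658 by edgeR). Deviations from the group means of Mhrt and Myh7 over the 64 libraries had r = -0.57, negative in 7 of 8 groups, and those of Mhrt and Myh6 had r = 0.51, positive in 7 of 8 groups. Those of Myh6 and Myh7 had r = -0.38, negative in 5 of 8 groups. These correlations are descriptions of values that share a library and its scaling. Of the exonic bases of Mhrt, 39.9% lie inside exons of Myh7 on the opposite strand, and the counting rule for strand is not given in the sources used here, so reads there cannot be told apart. In the table of long noncoding RNAs Mhrt had a mean of only 17.5 counts per library, and its change in Sed males, -0.55 ± 0.29, did not pass (adjusted p = 0.460 by edgeR, where 1.44% of 1108 noncoding RNAs changed).

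Whether the isoform ratio followed the amount of Tnnt2 transcript was examined within each TG group. In TG Sed males the log2 ratio was lower in libraries with more Tnnt2 (6538 to 9465 CPM), with Pearson's r = -0.83 (exact permutation p = 0.00705, adjusted over 4 groups 0.0141) and Spearman's rho = -0.88 (exact permutation p = 0.00308, adjusted p = 0.0123). Without the 2 libraries farthest from the median Tnnt2, r was -0.74. In TG HIIT males r was -0.90 (exact permutation p = 0.00446, adjusted p = 0.0141) and rho -0.76 (exact permutation p = 0.0368, adjusted p = 0.0735), but r was -0.45 without the 2 farthest libraries, so the relation rests on those libraries. In TG Sed females r was -0.02 (exact permutation p = 0.964) and in TG HIIT females -0.67 (exact permutation p = 0.140, adjusted p = 0.187). Without the 2 farthest libraries r was -0.25 in TG Sed females (6 libraries left) and -0.80 in TG HIIT females (4 left).

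The relation in males depended on how Tnnt2 was scaled. With Tnnt2 taken relative to Tnni3, cardiac troponin I, in place of the TMM-scaled library size, r was 0.03 (exact permutation p = 0.933) in TG Sed males, 0.15 (exact permutation p = 0.728) in TG HIIT males, 0.10 in TG Sed females and -0.65 in TG HIIT females. In a relation added after those values were seen, the log2 level of Myh6 had, with Tnnt2 CPM, r of 0.70, 0.63, 0.70 and 0.79 in TG Sed males, TG HIIT males, TG Sed females and TG HIIT females. None of the 4 passed (exact permutation p from 0.0381 to 0.109, adjusted p from 0.0798 to 0.109), and without the 2 farthest libraries r was 0.55, -0.50, 0.50 and 0.33.

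**Figure D5:**
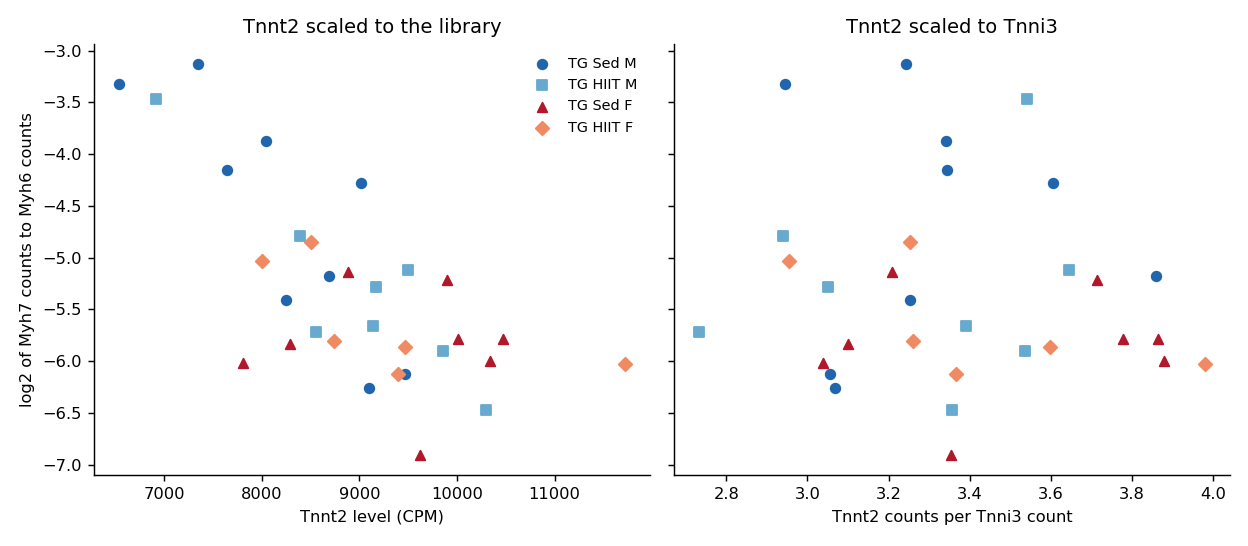
log2 of the Myh7 to Myh6 count ratio against Tnnt2 in the 31 TG libraries, with Tnnt2 in CPM (left) and as counts per Tnni3 count (right); each marker shape is 1 group. The downward trend of the male groups on the left (r = -0.83 and -0.90) is not seen on the right (r = 0.03 and 0.15).

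Partners of myosin in the thick filament changed with genotype in both directions. Of 15 listed genes 13 were measured, and 2 rose and 4 fell in Sed males, 2 rose and 2 fell in HIIT males, 2 rose and 2 fell in Sed females, and 2 rose and 3 fell in HIIT females. Of all genes, 9.39% rose and 11.2% fell in Sed males, 5.65% and 8.31% in HIIT males, 1.58% and 2.78% in Sed females, and 5.37% and 9.43% in HIIT females, and the counts of each list below stand beside these shares. Mybpc2, the fast skeletal myosin-binding protein C, rose in each of the 4 comparisons, by 1.13 ± 0.16, 1.03 ± 0.15, 0.98 ± 0.15 and 0.83 ± 0.15 on the log2 scale (adjusted p from 2.91e-07 to 9.53e-05 by edgeR). Sedentary males held 20.1, 25.2 and 32.5 CPM of it in nTG and 44.9, 54.0 and 92.3 CPM in TG libraries, with no overlap. Gene groups without overlap, higher in TG, made up 0.798% of all genes in that comparison. Mybpc3, the cardiac myosin-binding protein C, fell in each of the 4 comparisons, by 0.25 ± 0.05, 0.26 ± 0.05, 0.18 ± 0.05 and 0.24 ± 0.06. Mylk3, the cardiac myosin light chain kinase, fell by 0.30 ± 0.06 in Sed males, 0.27 ± 0.06 in Sed females and 0.25 ± 0.06 in HIIT females. Myl3, the ventricular essential light chain, fell by 0.19 ± 0.06 in HIIT males. Ttn, the giant spring protein titin, rose by 0.16 ± 0.05 in HIIT males, 0.30 ± 0.05 in Sed females and 0.25 ± 0.06 in HIIT females. The list median was -0.25, -0.06, 0.05 and -0.14 in Sed males, HIIT males, Sed females and HIIT females, against at most 0.011 in size for all genes. None of the 13 changed with training in any group, where 0%, 18%, 0.148% and 0% of all genes changed in nTG males, TG males, nTG females and TG females.

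Among genes of myosin folding and turnover, 6 of 10 fell with genotype in Sed males, 5 in HIIT males, 1 in Sed females and 7 in HIIT females, and none of 10 rose by edgeR, where 11.2%, 8.31%, 2.78% and 9.43% of all genes fell. The list medians were -0.15, -0.14, -0.08 and -0.19. The 6 cardiomyocyte markers, of which 4, 3, 2 and 4 fell, had medians of -0.19, -0.14, -0.10 and -0.18 in the same comparisons, and their part in the values of this list was not tested. Cryab, a small heat shock protein of the sarcomere, fell in each of the 4 comparisons, by 0.23 ± 0.04, 0.32 ± 0.04, 0.18 ± 0.04 and 0.35 ± 0.05. Smyd1, a methyltransferase needed for thick filament assembly, fell by 0.20 ± 0.05 in Sed males, 0.16 ± 0.05 in HIIT males (a call lost without nTG HIIT male replicate 5) and 0.24 ± 0.05 in HIIT females. Trim63, the muscle ubiquitin ligase MuRF1, fell by 0.22 ± 0.05 in Sed males, 0.15 ± 0.05 in HIIT males and 0.25 ± 0.05 in HIIT females. Hspb7, a cardiac small heat shock protein, fell by 0.32 ± 0.09 in HIIT males and 0.26 ± 0.09 in HIIT females. With training, 1 of the 10 fell in TG males and 1 rose in nTG females (7.6% of all genes fell and 0.124% rose in these comparisons).

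Of 13 measured genes that handle thyroid hormone, 1 rose and 3 fell in Sed males, 3 fell in HIIT males, none changed in Sed females and 1 fell in HIIT females. Of all genes, 20.6%, 14%, 4.37% and 14.8% changed in these comparisons, so the list's count in HIIT females, and its 0 in Sed females, lie below the share of all genes. Among those that fell were Ncor1, a corepressor of the hormone receptors (by 0.13 ± 0.03 in both male comparisons and 0.10 ± 0.03 in HIIT females), Thrb, a thyroid hormone receptor (by 0.22 ± 0.07 in Sed males), and Rxrg, its partner receptor (by 0.18 ± 0.06 and 0.20 ± 0.06 in sedentary and HIIT males). The calls of Thrb and Rxrg in Sed males were each lost without 1 library (nTG Sed male replicate 2 and TG Sed male replicate 5), and that of Ncor1 in HIIT females without any of 3 (TG HIIT female replicates 3, 5 and 6). Of 10 genes known to respond to the hormone, 2, 3, 1 and 2 fell in Sed males, HIIT males, Sed females and HIIT females, and none rose, where 11.2%, 8.31%, 2.78% and 9.43% of all genes fell. Atp2a2, the calcium pump of the sarcoplasmic reticulum, fell in each of the 4, by 0.29 ± 0.06, 0.18 ± 0.06, 0.18 ± 0.06 and 0.34 ± 0.06. The call in Sed females (adjusted p = 0.0445 by edgeR) was lost in 14 of 16 fits that left out 1 library, and that in HIIT males without TG HIIT male replicate 4. Its regulator Pln fell by 0.31 ± 0.08 in Sed males, Hcn2, a pacemaker channel, fell by 0.58 ± 0.13 in HIIT males, and Thrsp, a lipogenic target of the hormone, fell by 0.37 ± 0.11 in HIIT males and by 0.41 ± 0.12 in HIIT females. The Thrsp calls were lost without nTG HIIT male replicate 1 and without TG HIIT female replicate 5. Of the 6 cardiomyocyte markers 4, 3, 2 and 4 fell in the 4 genotype comparisons, and their part in these lists was not tested. With training in TG males, 2 of the 13 handling genes rose and 1 fell, and 1 of the 10 responsive genes rose and 2 fell. Of all genes, 10.3% rose and 7.6% fell there, and neither list changed with training in the other groups.

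Of 22 measured regulators of myosin heavy chain transcription, 1 rose and 1 fell with genotype in Sed males, 2 rose and 2 fell in HIIT males, 1 rose in Sed females, and 2 rose and 3 fell in HIIT females, where 20.6%, 14%, 4.37% and 14.8% of all genes changed. Vgll2, a cofactor of TEAD proteins known for driving slow muscle genes in skeletal muscle, rose in each of the 4 comparisons, by 2.31 ± 0.31, 1.48 ± 0.30, 1.38 ± 0.30 and 1.19 ± 0.30 (adjusted p from 2.17e-07 to 0.00363 by edgeR). It was at 1.27, 2.15 and 3.34 CPM in nTG and 3.61, 11.1 and 22.4 CPM in TG Sed males, which do not overlap, though 3.34 and 3.61 lie close. Of all genes, 0.798% were higher in TG without overlap in that comparison. Tbx5, a T-box factor of the heart, fell by 0.30 ± 0.09 in Sed males, a call lost in 2 of 16 fits that left out 1 library, and by 0.30 ± 0.10 in HIIT females, lost in 5 of 16. Mef2d fell by 0.25 ± 0.06 and Sp3 rose by 0.21 ± 0.05 in HIIT males, and Smarca4, the Brg1 chromatin remodeller, fell by 0.14 ± 0.04 in HIIT females, a call lost in 2 of 16 such fits. With training, 5 of the 22 rose and 4 fell in TG males, where 10.3% of all genes rose and 7.6% fell, and none changed in the other groups.

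Of 8 measured fetal and stress genes, a class in which Myh7 is often counted, 3 rose in Sed males (9.39% of all genes rose), 1 fell in HIIT males (8.31% fell), 1 rose in Sed females (1.58% rose) and 1 fell in HIIT females (9.43% fell). The gene that fell was Actc1, also a cardiomyocyte marker above, by 0.19 ± 0.06 in HIIT males and 0.16 ± 0.06 in HIIT females. Its calls were lost in 2 and 10 of 16 fits that left out 1 library. The list median was 0.48 in Sed males, against -0.005 for all genes. Acta1, the skeletal actin of the fetal heart, rose by 1.63 ± 0.36 in Sed males (63.3, 179 and 268 CPM in nTG, 201, 494 and 951 CPM in TG libraries) and by 1.11 ± 0.35 in Sed females. The female call was marginal (adjusted p = 0.0477 by edgeR) and was lost in 11 of 16 fits that left out 1 library. Xirp2 and Ankrd1, sarcomere-associated stress genes, rose by 0.42 ± 0.10 and 0.75 ± 0.19 in Sed males. Nppa, atrial natriuretic peptide, had log2 values of 0.73 ± 0.45, 0.76 ± 0.44, 1.15 ± 0.45 and 0.99 ± 0.45 in the 4 comparisons without passing (adjusted p from 0.125 to 0.271 by edgeR). Among 4 measured heavy chains of nonmuscle and smooth muscle cells, Myh10 rose by 0.17 ± 0.06 in Sed males (adjusted p = 0.0416 by edgeR), a call lost in 7 of the fits that left out 1 library.

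Markers of other cell types were summed in each library. Of 5 atrial markers 4 were in the table (Nppa, Myl4, Myl7 and Sln, with Bmp10 not listed), and their sum was 29.8 to 601 CPM in nTG Sed males, 35.2 to 315 in TG Sed males, 41.6 to 262 in nTG HIIT males and 53.2 to 682 in TG HIIT males. In females it was 20.2 to 265 in nTG Sed, 50.8 to 317 in TG Sed, 36.6 to 224 in nTG HIIT and 87.8 to 241 in TG HIIT. Over the 64 libraries the deviations of this sum from the group means had r = 0.44 with those of Myh7 and r = -0.44 with those of Myh6. Most of the sum was Nppa, which is also a stress gene (a mean of 158 CPM in TG Sed males, where Myl4 had 18.8, Myl7 6.18 and Sln 1.49). In Sed males the genotype values of Myl4, Myl7 and Sln, -1.15, -1.55 and -1.17, had the opposite sign to the 0.73 of Nppa, and none of the 4 passed. The highest Myh7 library of TG HIIT males, replicate 4, also had the highest atrial sum of its group, 682 CPM, whereas the high nTG HIIT male, replicate 2, had 169 CPM, inside the range of its group. The part of atrial tissue in these results was not tested.

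Of 9 skeletal muscle markers 2 were in the table, Myl1 and Tnni2. Their sum was 25.5 to 84.3 CPM over the 4 TG groups and 5.58 to 23.9 CPM over the 4 nTG groups, and it had r = 0.19 with Myh7 and -0.51 with Myh6. Tnni2 had group means of at most 1.10 CPM, and the rest was Myl1, a light chain of fast skeletal and fetal muscle, which rose in each genotype comparison by 1.63 to 1.97. The defining heavy chains of fast skeletal muscle, Myh1, Myh2 and Myh4, were not in the table. Of the 5 blood markers, all measured, the sum reached 4603 CPM in TG Sed male replicate 5 and lay between 260 and 1174 CPM in the other 63 libraries, with r = 0.32 with Myh7. All 5 were lower in TG than nTG HIIT males (median log2 change -1.22, where 8.31% of all genes fell), in TG HIIT than TG Sed males (-1.45, where 7.6% fell) and in TG Sed females than males (-1.02, where 2.25% were lower), and none passed in the other 9 comparisons. Smooth muscle (4 of 4 measured) lay at 81.8 to 328 CPM and adipose markers (3 of 5 measured) at 91.2 to 142 CPM over all libraries, with r of -0.32 and -0.08 with Myh7. The part of these cell types in the Myh7 result was not tested.

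The genes most like each member were found from the deviations of log2 CPM from the group means over the 64 libraries, among 12255 genes, so that differences between groups play no part. Those most like Myh7 were Atp8a2 (r = 0.79), Gnao1 (0.72), Rtn4 (0.70), Crispld2 (0.70) and Synpo2l (0.70), and the most opposite were Ryr2 (-0.60), Mylk4 (-0.60) and Gpt2 (-0.58). Atp8a2, a phospholipid flippase, had r of 0.17 to 0.94 with Myh7 within groups, and its mean was 15.1 ± 2.09 CPM in nTG and 14.8 ± 3.90 CPM in TG Sed males. Gnao1, a G protein alpha subunit, had 32.6 ± 4.44 and 49.8 ± 9.22 CPM in the same groups, with r of 0.42 to 0.90 within groups.

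Myh6 varied most like Acadvl (r = 0.81), Tnni3 (0.80), Atp5b (0.79), Etfb (0.79) and Hrc (0.78), of which Acadvl and Etfb serve fatty acid oxidation and Atp5b is part of the ATP synthase. It varied most opposite to Emp1 (-0.75), Mmp2 (-0.75) and Fbn1 (-0.74), of which Mmp2 and Fbn1 are genes of the extracellular matrix. Among the genes that varied most like Myh7b were Ggnbp1 (0.76), Mhrt (0.73), Slc22a3 (0.67) and Leng8 (0.67), and it varied most opposite to Arrb1 (-0.70), Ctsh (-0.69) and Tdrkh (-0.69). Myh7b and Mhrt lie on different chromosomes, and their r was positive in 8 of 8 groups (0.31 to 0.96). Between the members themselves r was 0.44 for Myh6 and Myh7b and -0.21 for Myh7 and Myh7b.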

How the data were processed

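The deposited gene table holds counts per Ensembl gene, and the deposited table of long noncoding RNAs holds expected counts, which were rounded. The submitters' processing notes name cutadapt 2.3, FastQC 0.11.8, MultiQC 1.7, STAR 2.7.8a and RSEM 1.3.3 and the builds GRCm38 and mm10; which tool made which of the authors' counts, the annotation and the strand setting are not given in the sources used here.

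Columns were joined by Pearson correlation of centred log2 CPM (pseudocount 0.5, mean of at least 20 counts in both tables); Tnnt2 and genes on the sex chromosomes were kept for checking the result. Genes were tested with edgeR 4.0.16 (R 4.3.3): low-count filter, TMM, 8 group means, glmQLFit and glmQLFTest. Alternatives were DESeq2 1.42.0, limma 3.58.1 voom with sample weights, other scalings, no filter, 1 sex alone, a replicate block, each library left out and columns by name. The ratio is log2((Myh7 + 0.5)/(Myh6 + 0.5)), tested with scipy 1.17.1. Mitochondrially encoded genes took 13.4% to 20.4% of counts. Symbols and loci came from GENCODE M21.

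Named from each pathway list were, per genotype comparison, up to 3 called genes ranked by p (with their calls in the other genotype comparisons), and for likeness the 5 highest and 3 lowest r per member (mean of at least 50 counts, prior count 2, no clone names or pseudogenes). Some genes that these rules name are not reported here. Tnni2, Myl1, Nppa and the per-library marker sums were named after their values were seen. The members and lists were chosen with earlier results of these data known. The test script was checked on simulated data.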

Additional observations from a re-analysis of the deposited data

Results flagged for a closer look

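A library stood far from the others of its group (Dixon's test at the 95% level) in 5 of 48 groups of values examined, where chance gives about 2.4. The groups of values share libraries and related quantities, such as Myh7 and its ratio to Myh6. The 5 can therefore not be counted as separate events against the 2.4. In nTG HIIT male replicate 2, Myh7 lay at 2218 CPM while its 7 group mates held 235 to 573, and the log2 ratio of Myh7 to Myh6 was -4.09, with -7.61 to -6.07 in the group mates. In TG HIIT male replicate 4, Myh7 lay at 2671 CPM while its 7 group mates held 452 to 1383, and Mhrt lay at 14.0 CPM while they held 18.8 to 22.4. In the table of long noncoding RNAs, Mhrt in nTG HIIT female replicate 7 was 0.757 CPM (on the gene-table total), with 0.229 to 0.479 in its 9 group mates. Chance flags about 1 in 20 such groups.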

How the results depend on the processing

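Across the alternatives the direction of the Myh7, Myh6 and ratio changes with genotype depended on one choice, which library a gene column belongs to. With columns taken by their names, edgeR called 0 genes in each genotype comparison, and the log2 changes of Sed males became 1.2 for Myh7, -0.13 for Myh6, 0 for Myh7b and 1.06 for the ratio, those of HIIT females -0.23, -0.06, -0.16 and -0.09, and those of Sed females -0.18 for Myh7b and 0.35 for the ratio, with Myh6 at 0.06 in HIIT males. By name the training values were -0.11 for Myh6 and 0.09 for Myh7b in nTG females, -0.06 for Myh6 and -0.01 for Myh7 in TG females, -0.02, 0.59 and 0.57 for Myh6, Myh7 and the ratio in TG males and 1.47 for the ratio in nTG males. The female-against-male values by name were 0.02, 0.38 and 0.41 for Myh6, Myh7 and the ratio in nTG Sed and -0.48 for Myh7 in TG Sed mice. By name 45 libraries go against their sex or genotype labels.

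With limma voom, Myh7 in Sed females passed at 1.17, Myh7b in HIIT females at 0.28 and Myh6 with training in TG males at 0.11. Under voom the Myh7 sex difference in TG Sed mice, -0.98, did not pass (adjusted p = 0.0663), and Myh7 was 0 for sex in nTG HIIT mice and -0.2 for training in nTG males. With the groups of 1 sex alone, Myh7 passed in Sed females (0.96) and HIIT females (0.78), and 5 calls were lost, Mhrt and Myh10 in Sed males and Actc1, Ncor1 and Smarca4 in HIIT females (adjusted p from 0.0568 to 0.094). As Myh7 percent of both chains, the TG Sed sex difference was -3.04 percentage points and passed, and training in nTG males was 0.24 points. Without mitochondrial genes Myh7b with training in TG males was 0. Relative to Tnni3, the correlation of the ratio with Tnnt2 was 0.03, 0.15 and 0.1 in TG Sed males, TG HIIT males and TG Sed females. On the noncoding table's own totals, Mhrt in HIIT females was -0.18. Among list genes, median-of-ratios scaling lost the call of Atp2a2 in Sed females (adjusted p = 0.0503), DESeq2 did so for Acta1 there (0.0509), and Ncor1 and Smarca4 in HIIT females lost their calls without mitochondrial genes (0.0514 and 0.0519). The causes were not tested. Direction and side of the threshold were kept by 100 results under DESeq2 (3 changed), 91 under limma voom (7 changed), 75 with 1 sex alone (7 changed), 104 under the replicate block (6 changed), 94 without mitochondrial genes (4 changed), 96 under median-of-ratios scaling (2 changed), 106 without the filter (0 changed) and 12 with a pseudocount of 5 for the ratio (0 changed). All 16913 genes of the gene table passed the filter, so for them the fit without it is the main fit. A pseudocount of 5 is small beside at least 8002 Myh7 counts per library. Neither setting therefore says anything about the stability of the member results.

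With the replicate number as a block, the ratio was 1.99, 1.12 and 1.17 in Sed males, Sed females and HIIT females and did not pass (adjusted exact sign-flip p = 0.075). The unadjusted p was the smallest that the pairs allow in Sed males (exact p = 0.0156) and HIIT females (exact p = 0.0312), so the lost calls there say nothing about stability. With the block, Myh7b in HIIT females passed at 0.38 (adjusted p = 0.00709 by edgeR). The block gave 3 calls in place of 25 for training in nTG females. Same-numbered libraries had a median r of 0.01 over 205 pairs and other pairs 0, with r over 0.1 in 51 of the 205 and in 296 of 1582 other pairs. Most pairs of either kind lie at or under 0.1, so these values do not decide whether same-numbered libraries belong together. The main tests did not pair them.

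Leaving out each library in turn, Myh7 ranged over 0.48 to 1.46 for genotype in HIIT males, -1.05 to -0.49 and -0.45 to 0.32 for training in TG and nTG males, and -1.47 to -1.13 and -0.49 to 0.29 for sex in TG Sed and nTG HIIT mice. Myh6 ranged over -0.15 to -0.08 for genotype in HIIT males, 0.07 to 0.13, -0.04 to 0.01 and -0.01 to 0.03 for training in TG males, nTG males and TG females, and -0.04 to 0.01 and -0.02 to 0.05 for sex in nTG Sed and TG HIIT mice. Myh7b ranged over 0.21 to 0.36 for genotype in HIIT females and -0.1 to 0 and -0.03 to 0.06 for training in nTG and TG males. The ratio ranged over 0.87 to 1.47 for genotype in HIIT males, -0.5 to 0.01 for training in nTG males, and -0.33 to 0.17, -0.82 to -0.55 and -1.4 to -1.01 for sex in nTG HIIT, nTG Sed and TG Sed mice. The sex difference of the ratio passed in 2 of the 15 fits that leave out 1 nTG Sed library and in 5 of the 17 that leave out 1 TG Sed library. Mhrt ranged over -0.29 to -0.2 and -0.03 to 0.1 for genotype in Sed males and HIIT females. Depth limits Mhrt in the noncoding table (a mean of 17.5 counts) more than the members, which had at least 1893 counts in each library.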
